A study of Bos taurus with 6 samples.

Results

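G protein-coupled receptors were examined in RNA sequencing of Angus and Chinese Simmental cattle, in the longissimus dorsi, a back muscle that runs along the spine. The set holds the genes that the deposited table annotates to G protein-coupled receptor activity. That term was on 50 of the 2040 named rows. Left out were 28 rows with assembled, provisional or transporter names, 1 row without reads in a breed and 3 rows set aside by name. The remaining 18 names cover 17 distinct sets of counts, because FFAR1 and FFAR3 carry identical values. The membrane region of a receptor was named in the table's Pfam column for 17 of the 18, of which 10 were of the rhodopsin family, 6 of the secretin family and 1 a Frizzled. FRZB was the exception. It is a secreted Wnt-binding protein and not a receptor, and it is reported here because it carries the term.

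The samples were 3 Angus and 3 Chinese Simmental libraries of mRNA, taken at ribs 12 and 13 at 18 months of age. The study set the breeds side by side with intramuscular fat in view. The labels name no treatment and no genotype besides the breed. Because no label ties a library to its own animal, the p-values reflect variation between these libraries, which may be technical. Every row of the table had passed the authors' own selection, with the smallest absolute log2 fold change at 1.00 and the largest adjusted p at 0.0492 in the authors' deposited table. Each listed receptor was therefore selected for a difference between the breeds, so a call here is no independent evidence of one, and receptors outside the table were not analysed here.

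G protein-coupled receptors cross the cell membrane and pass the binding of an outside ligand to heterotrimeric G proteins within the cell. The active G protein changes the output of adenylyl cyclase, phospholipase C or small GTPase regulators, and receptor kinases and arrestins end the signal. Rhodopsin-family receptors sense small molecules, lipids and peptides. Adhesion receptors carry a long outer part that binds neighbouring cells or matrix, and Frizzled receptors bind Wnt proteins. Leukocytes carry many of them, and in muscle and fat such receptors relay signals that act on glucose and lipid use.

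Counts over the listed rows summed to 12010803 to 28883725 per library, and the depth of each whole library is unknown here. All libraries, labelled as muscle, held reads of immune cell markers. The 17 listed of 20 B cell markers were all higher in Angus, and their summed normalized counts were 299734 to 403982 in Angus and 80203 to 119348 in Chinese Simmental. The 14 listed of 18 neutrophil markers and the 8 listed of 18 monocyte and macrophage markers were all lower in Angus, although TMM factors, an alternative scaling, turned FCGR3A among the neutrophil markers. Summed neutrophil markers were 68040.1 to 117429 in Angus and 686604 to 1223402 in Chinese Simmental. Summed monocyte and macrophage markers were 20521 to 44596 in Angus and 218359 to 441898 in Chinese Simmental. The 5 listed of 30 muscle fibre genes, which do not include ACTA1, CKM or MYH7, summed to 2783 to 4343 in Angus and 4638 to 6324 in Chinese Simmental. Of these, TNNT3, NEB and MYBPC2 were called higher in Angus and TPM1 and RYR1 lower in Angus, with a median log2 fold change of 1.48, and TPM1 turned with TMM factors. The 5 listed of 16 adipocyte markers summed to 23769 to 49402 in Angus and 142889 to 264938 in Chinese Simmental. AGPAT2 was called higher in Angus and CEBPA, DGAT2, CFD and LIPE were called lower in Angus, of which DGAT2 alone was called lower with TMM factors. The listed markers of these 5 types had reads in every library, and the levels of unlisted genes are unknown here. Over all rows tested, 24.9% were called higher in Angus and 75.0% lower in Angus. In bulk tissue, fewer cells of a type and less RNA per cell cannot be told apart.

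Normalized counts are counts divided by the size factors that the deposited group means imply, and a positive log2 fold change, given with its standard error, means a higher level in Angus. All 18 names passed the edgeR quasi-likelihood test at a Benjamini-Hochberg adjusted p under 0.05 over all rows tested, 6 of them higher in Angus and 12 lower in Angus. Among all 1989 rows tested, 24.9% were called higher in Angus, 75.0% were called lower in Angus and 99.9% were called in either direction, so a call sets no receptor apart from the table. The median log2 fold change was -1.55 over the 18 names and -1.57 over all rows tested. Normalized counts of the breeds did not overlap for 14 of the 18 names, against 90.3% of all rows. Of the 18, 5 lay wholly higher in Angus, against 24.4% of all rows, and 9 lay wholly lower in Angus, against 65.9% of all rows. TMM factors computed over the selected rows, which moved all log2 fold changes toward Angus by a median of 1.35, left 6 names called higher in Angus and 2 called lower in Angus. Those 2 were GPR84 and GPR27.

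**Figure D1:**
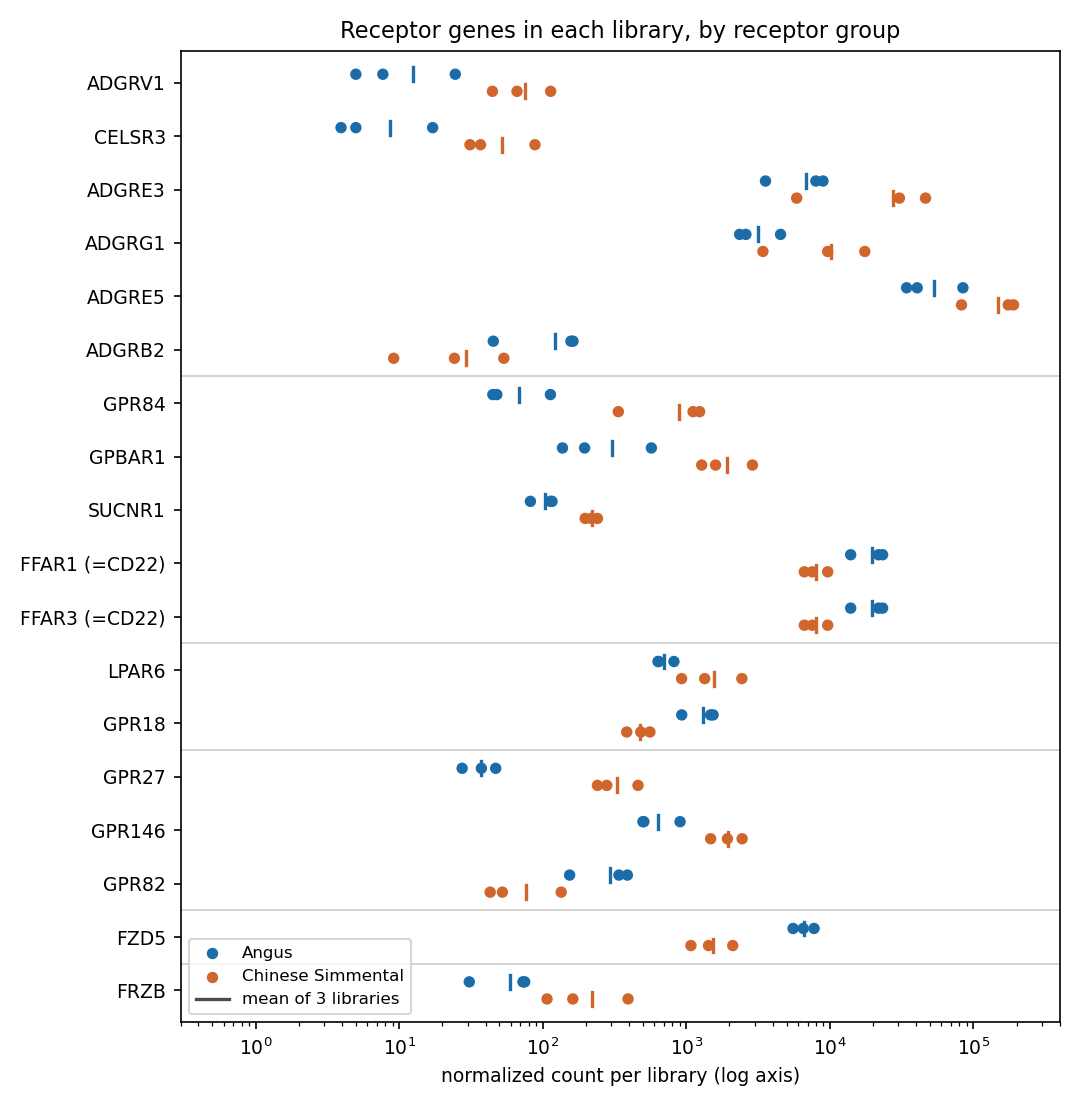
Normalized counts of the 18 names in each of the 6 libraries on a log axis, with Angus above Chinese Simmental in each row, a short bar at the mean of 3 libraries and lines between receptor groups. ADGRE5 holds the highest values and CELSR3 in Angus the lowest, and the breeds overlap for ADGRE3, ADGRE5, ADGRG1 and ADGRB2.

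The adhesion receptors formed the largest group, with 6 names, of which ADGRB2 was higher in Angus and ADGRE5, ADGRE3, ADGRG1, ADGRV1 and CELSR3 were lower in Angus. ADGRE5 (CD97), a leukocyte receptor that binds CD55, stood at 34294, 40635 and 84609.6 normalized counts in Angus replicates 1 to 3, against 82760.3, 190593 and 174966 in Chinese Simmental replicates 1 to 3. The highest Angus library lay just above the lowest Chinese Simmental library, so the breeds overlapped. It was 2.81-fold lower in Angus, with a log2 fold change of -1.49 ± 0.53. ADGRE3, a receptor with epidermal growth factor modules that is carried by myeloid cells in humans, stood at 3566, 8000.0 and 8967 in Angus, against 5881, 30548 and 46449 in Chinese Simmental. Chinese Simmental replicate 1 lay within the Angus range, and the other libraries of that breed lay far above it. ADGRE3 was 4.04-fold lower in Angus, with a log2 fold change of -2.01 ± 0.69 that became -1.41 without Chinese Simmental replicate 3. Because these 2 genes are related in sequence, reads of one could have been counted for the other, and their levels are uncertain to that extent. The summed neutrophil and monocyte markers were also lower in Angus, and their part in these results was not tested.

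ADGRG1 (GPR56), which marks cytotoxic lymphocytes in humans and binds collagen, stood at 4542, 2604 and 2357 in Angus, against 3423, 9672 and 17544 in Chinese Simmental. Angus replicate 1 exceeded Chinese Simmental replicate 1, and the spread within Chinese Simmental was wider than within Angus. It was 3.22-fold lower in Angus, at -1.69 ± 0.57, and -1.05 without Chinese Simmental replicate 3, where the call was lost. All 4 listed of 21 T and natural killer cell markers, NKG7, GZMA, PRF1 and NCR1, were lower in Angus as well. So were 75.0% of all rows tested, and TMM factors turned NCR1 and PRF1. CD3D, CD4 and CD8A, T cell genes among the 21, were not listed. Summed normalized counts of the 4 markers were 10391 to 11092 in Angus and 13830.4 to 37334 in Chinese Simmental. The part of these markers in the ADGRG1 result was not tested. Within a library, the FPKM of ADGRE3 was 0.499, 0.908 and 0.519 times that of ADGRE5 in Angus replicates 1 to 3 and 0.331, 0.753 and 1.25 times in Chinese Simmental replicates 1 to 3, and the breeds overlapped.

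The other 3 adhesion receptors were low. ADGRB2 (BAI2), best known from brain, had 163, 157 and 45.3 normalized counts in Angus replicates 1 to 3, against 53.6, 9.16 and 24.3 in Chinese Simmental replicates 1 to 3. Angus replicate 3 lay within the Chinese Simmental range, and the other Angus libraries lay above it. Its log2 fold change of 2.07 ± 0.78 became 2.86 without Chinese Simmental replicate 1. ADGRV1, a very large receptor of the hair cells of the inner ear, had 7.70, 5.0 and 24.6 in Angus, against 66.2, 114 and 44.7 in Chinese Simmental. CELSR3, a cadherin-type receptor of axon guidance, had 17.1, 5.0 and 3.94 in Angus, against 88.3, 31.2 and 36.9 in Chinese Simmental. Both were lower in every Angus library than in any Chinese Simmental library, at -2.57 ± 0.76 and -2.54 ± 0.79. Raw Angus counts were 9, 4 and 25 for ADGRV1 and 20, 4 and 4 for CELSR3, so each fold change rests on few reads and single libraries moved it. That of ADGRV1 became -3.52 without Angus replicate 3, and that of CELSR3 became -3.51 without Angus replicate 1 and -1.93 without Chinese Simmental replicate 1. Adjusted p over the adhesion group ran from 0.0131 to 0.0280 in the edgeR quasi-likelihood test. Leaving out 1 library cost the call of ADGRB2 and ADGRE5 in 4 of 6 cases each, of ADGRG1 in 3 and of ADGRE3 and CELSR3 in 2 each, while ADGRV1 kept its call in all 6.

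Of the receptors for free fatty acids and other metabolites, the rows named FFAR1 and FFAR3 were higher in Angus and GPR84, GPBAR1 and SUCNR1 were lower in Angus. FFAR1 is the receptor for long-chain fatty acids that promotes insulin release, and FFAR3 responds to short-chain fatty acids. Both rows read 23330.0, 21845 and 13985 normalized counts in Angus replicates 1 to 3, against 7541, 9672 and 6648 in Chinese Simmental replicates 1 to 3. Each Angus library was above each Chinese Simmental library, the rows were 2.48-fold higher in Angus, and the log2 fold change was 1.31 ± 0.38. The same values stand in a row named CD22, a sialic-acid-binding inhibitory receptor of B cells, in all 6 libraries and in counts as well as FPKM. CD22, FFAR1 and FFAR3 follow one another in RefSeq's ARS-UCD2.0 gene order, a build other than that of the files and used only for which genes adjoin, with no other annotated gene between them. The table thus gives 1 value for 3 genes, and how much of it came from either fatty acid receptor cannot be told apart from CD22. The other 16 listed B cell markers were higher in Angus too, and their part in the FFAR1 and FFAR3 rows was not tested.

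GPR84, a receptor for medium-chain fatty acids that inflammatory stimuli induce in myeloid cells, had 47.9, 45.0 and 113 normalized counts in Angus replicates 1 to 3, against 336, 1239.9 and 1116 in Chinese Simmental replicates 1 to 3. The lowest Chinese Simmental library, replicate 1, was well above the highest Angus library. GPR84 was 13.1-fold lower in Angus at -3.70 ± 0.66, the largest difference of the 18. GPBAR1 (TGR5), the membrane receptor for bile acids, had 572, 137 and 196 in Angus, against 2893, 1281 and 1601 in Chinese Simmental. Replicate 1 was the highest library within each breed, and the breeds did not overlap. It was 6.38-fold lower in Angus at -2.67 ± 0.62, and -3.53 without Angus replicate 1. SUCNR1, the receptor for the citric acid cycle intermediate succinate, had the smallest difference of the set and the smallest spread within Chinese Simmental, with 82.2, 116 and 113 in Angus, against 198, 218 and 241 in Chinese Simmental. Every Angus library lay below every Chinese Simmental library, and SUCNR1 was 2.11-fold lower in Angus at -1.08 ± 0.46. SUCNR1 lost its call when the replicate number was added as a block (adjusted p = 0.0661, edgeR quasi-likelihood test) and without any library except Chinese Simmental replicate 1, and its direction turned to 0.27 with TMM factors. The other members of this group kept their calls in all 6 leave-outs, and adjusted p over the group ran from 0.00351 to 0.0413. CD14 and CD163, markers of monocytes and macrophages, were lower in Angus at -4.12 ± 0.58 and -4.16 ± 0.47, and their part in the GPR84 and GPBAR1 results was not tested. The summed adipocyte markers were lower in Angus, as were GPR84, GPBAR1 and SUCNR1 but not the FFAR1 and FFAR3 rows. AGPAT2, 1 of the 5 listed adipocyte markers, was higher in Angus. The part of these markers in the results of this group was not tested.

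**Figure D2:**
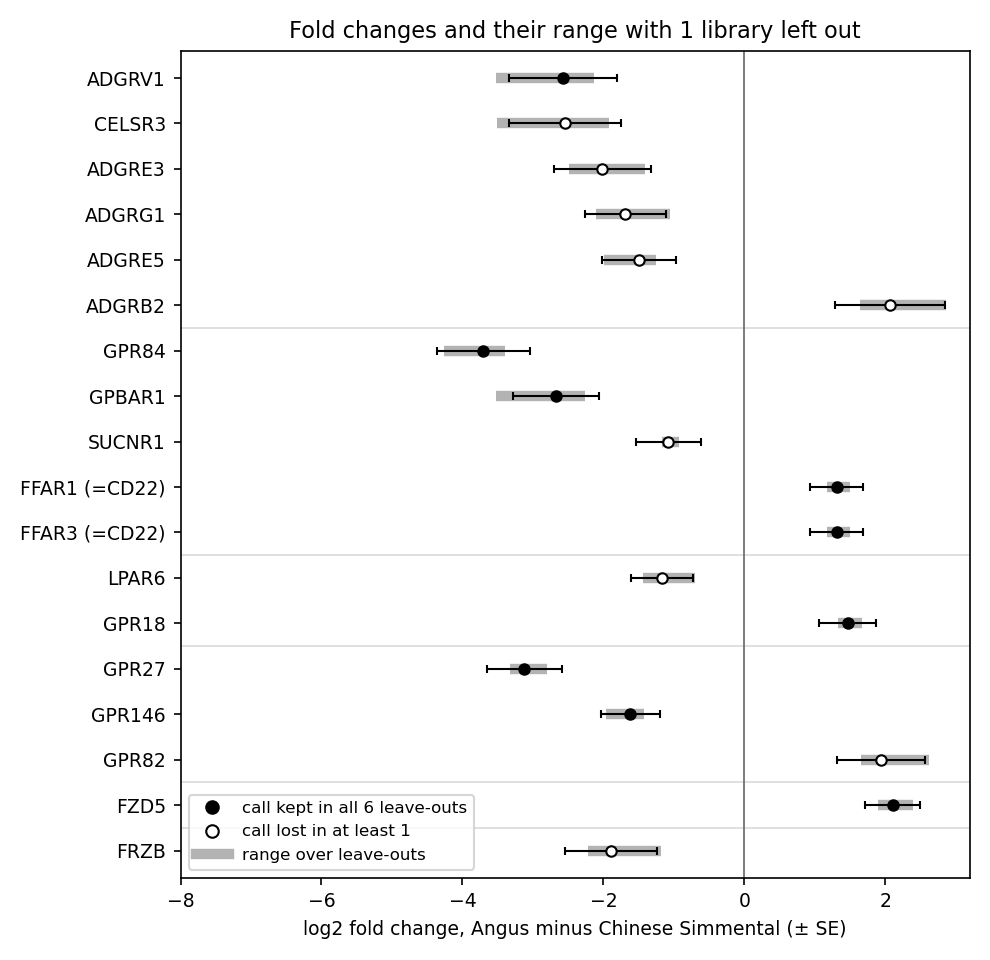
Log2 fold changes of the 18 names (points, with the standard error as whiskers) and the range of each over 6 fits that leave out 1 library (grey bars). Filled points kept their call in all 6 fits, and CELSR3 has the widest range, from -3.51 to -1.93.

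Among receptors grouped with the lipid mediators, GPR18 was higher in Angus and LPAR6 was lower in Angus. GPR18, named in the table as the receptor for N-arachidonyl glycine and carried by lymphocytes, had 1477, 1539 and 930.3 normalized counts in Angus replicates 1 to 3, against 558, 385 and 483 in Chinese Simmental replicates 1 to 3. The breeds did not overlap, and GPR18 was 2.77-fold higher in Angus at 1.47 ± 0.40. LPAR6, a receptor for lysophosphatidic acid, had 644, 636 and 821 in Angus, against 928, 1344 and 2442 in Chinese Simmental. The breeds did not overlap, and the Angus libraries lay close together while those of Chinese Simmental spread over a 2.63-fold range. It was 2.24-fold lower in Angus at -1.17 ± 0.45, at -0.70 without Chinese Simmental replicate 3, and at 0.27, in the opposite direction, with TMM factors. Its call was lost in 4 of the 6 leave-outs. Adjusted p was 0.0102 for GPR18, which kept its call in all 6, and 0.0288 for LPAR6 in the edgeR quasi-likelihood test.

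The 3 orphan receptors, for which no ligand is settled, were GPR82, higher in Angus, and GPR27 and GPR146, lower in Angus. GPR27, known from brain, had 47.1, 27.5 and 37.4 normalized counts in Angus replicates 1 to 3, against 241, 279.5 and 461 in Chinese Simmental replicates 1 to 3. The lowest Chinese Simmental library was far above the highest Angus library, and GPR27 was 8.77-fold lower in Angus at -3.12 ± 0.53. GPR146, which affects plasma cholesterol in mice, had 906, 507 and 499 in Angus, against 1479, 2451 and 1936 in Chinese Simmental. It was 3.07-fold lower in Angus at -1.62 ± 0.42, with no overlap between breeds. GPR82 had 154, 339.7 and 389 in Angus, against 135, 43.1 and 52.4 in Chinese Simmental. Angus replicate 1 was only slightly above Chinese Simmental replicate 1, and the other libraries lay far apart. GPR82 was 3.84-fold higher in Angus at 1.94 ± 0.62, and at 2.62 without Chinese Simmental replicate 1. Adjusted p for the 3 ran from 0.00341 to 0.0167 in the edgeR quasi-likelihood test. GPR27 and GPR146 kept their calls in all 6 leave-outs, and GPR82 lost its call in 3.

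FZD5, a Frizzled receptor for Wnt proteins, had 5548, 7770.2 and 6538 normalized counts in Angus replicates 1 to 3, against 2109, 1431 and 1078 in Chinese Simmental replicates 1 to 3. All 3 Angus libraries lay close together and far above the Chinese Simmental libraries. FZD5 was 4.30-fold higher in Angus at 2.10 ± 0.39 (adjusted p = 0.00366, edgeR quasi-likelihood test), and its call stood in all 6 leave-outs. FRZB, the secreted protein that binds Wnt and holds it from Frizzled receptors, had 30.8, 74.9 and 72.8 in Angus, against 107, 162 and 393 in Chinese Simmental. The breeds did not overlap, and FRZB was 3.71-fold lower in Angus at -1.89 ± 0.65 (adjusted p = 0.0208), and -1.18 without Chinese Simmental replicate 3, the highest library. Its call was lost without that library and without Angus replicate 1. Under the deposited scaling the Wnt receptor and the Wnt antagonist that carried the term thus differed in opposite directions, and with TMM factors FRZB was not called.

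Levels of different receptors can be set side by side only per length, as FPKM (fragments per kilobase of gene, scaled by library depth). Among the 17 loci that carry the term, the rows with the highest mean FPKM over the 6 libraries were ADGRE5, ADGRE3 and the FFAR1, FFAR3 and CD22 row. Some listed receptors that the term did not match averaged more. TBXA2R averaged 1147 FPKM in Angus and 424 FPKM in Chinese Simmental, and C5AR2 265 and 2134 FPKM. ADGRE5 averaged 121 ± 54.4 FPKM in Angus and 338 ± 109 FPKM in Chinese Simmental (SD, n = 3 each), ADGRE3 averaged 74.2 ± 26.6 FPKM in Angus and 281 ± 186 FPKM in Chinese Simmental, and the shared FFAR1 row averaged 238 ± 73.2 FPKM in Angus and 95.6 ± 24.1 FPKM in Chinese Simmental. As a share of the summed FPKM of the 17 loci, the FFAR1 row held 48.9%, 44.8% and 28.5% in Angus replicates 1 to 3, against 13.7%, 9.92% and 5.79% in Chinese Simmental replicates 1 to 3. ADGRE5 and ADGRE3 together outweighed that row in every Chinese Simmental library, as they did in 1 Angus library, replicate 3. GPBAR1 held 5.52%, 1.25% and 1.88% in Angus and 23.0%, 5.93% and 6.11% in Chinese Simmental. Among the 17 loci, GPR18 was next highest in Angus, at 56.6 ± 17.0 FPKM in Angus and 20.3 ± 5.91 FPKM in Chinese Simmental.

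**Figure D3:**
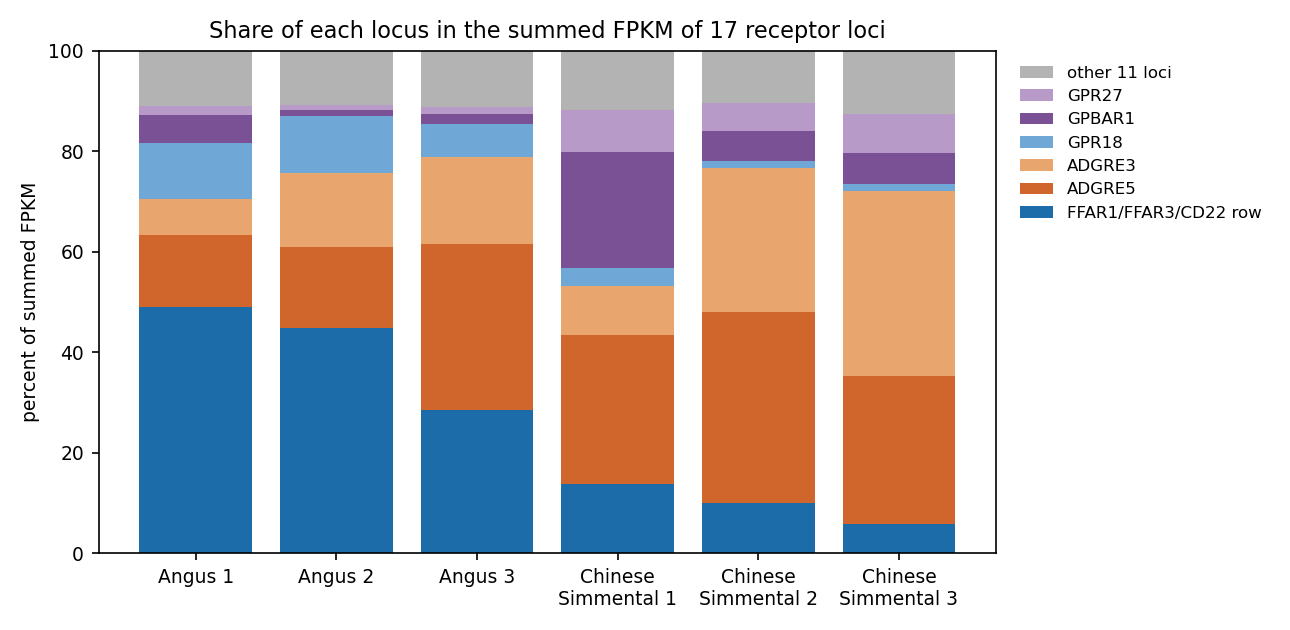
Percent of the summed FPKM of the 17 receptor loci held by each of 6 loci and by the other 11 together, as stacked bars for each library, Angus left of Chinese Simmental. The FFAR1, FFAR3 and CD22 row holds 28.5% to 48.9% of it in Angus, against 5.79% to 13.7% in Chinese Simmental.

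Counts per unit of FPKM, which grow with the length the authors assigned to a row, differed widely. Relative to the median listed row, that figure was 0.0421 for GPR27 and 0.183 for GPBAR1, but 4.18 for ADGRE5, 4.76 for FZD5 and 6.25 for ADGRG1. GPR27 accordingly stood at 8.84 ± 2.90 FPKM in Angus and 73.1 ± 15.6 FPKM in Chinese Simmental on few counts, and FZD5 at 13.6 ± 1.55 FPKM in Angus and 3.21 ± 1.46 FPKM in Chinese Simmental on many. Whether these lengths match the transcripts present is unknown here, so the order of receptors by FPKM carries that uncertainty. The comparison of 1 receptor between breeds by normalized counts does not use the length. By FPKM the size of a breed difference could be another. GPR146 was 3.07-fold lower in Angus by normalized counts and 2.38-fold lower by FPKM, while SUCNR1 was 2.11-fold lower and 2.34-fold lower. Whether the assigned lengths differed between libraries was not tested. The mean FPKM of each of the 18 names was higher in the same breed as its normalized counts.

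The annotation term did not match every receptor in the table. From lists of receptor families, 32 more listed receptors were not matched by it, 9 of them called higher in Angus and 23 lower in Angus. Among all rows tested, 24.9% were called higher in Angus and 75.0% lower in Angus, so these counts set the receptors little apart. Their median log2 fold change was -1.85 beside -1.57 over all rows. With TMM factors 31 of them were tested, 9 were called higher in Angus and 4 lower, and those 4 were CCR1, CXCR1, CXCR2 and GLP1R, to which RLE factors, another scaling over the listed rows, added C5AR1. GLP1R and CHRM3 rest on 2 counts each in the Angus libraries together. PTAFR, called lower in Angus, shares its counts with another row outside these 32, so the counts cannot be assigned to PTAFR alone. It was 5.21-fold lower in Angus by normalized counts and 1.70-fold lower by FPKM. The largest group was that of chemokine and chemoattractant receptors, of which the term matched none and 11 of 32 were listed, 2 higher in Angus and 9 lower in Angus. With TMM factors 2 and 3 were called. CXCR5 and CCR7, which guide lymphocytes into follicles and lymph nodes, were higher in Angus, at 1.87 ± 0.45 and 1.32 ± 0.51. CXCR1 and CXCR2, the interleukin-8 receptors of neutrophils, were lower in Angus at -4.11 ± 0.88 and -4.06 ± 0.87. Both are also among the 14 listed neutrophil markers summed above, so the 2 results are not separate. CXCR2 averaged 5.40 FPKM in Angus and 192 FPKM in Chinese Simmental, a 35.5-fold difference, where its normalized counts differed 16.6-fold. CXCR1 had 422, 1667 and 3806 normalized counts in Angus replicates 1 to 3, against 9640.1, 42807 and 49624 in Chinese Simmental replicates 1 to 3. Chinese Simmental replicate 1 was the lowest of its breed, as for ADGRE3 and GPR84, and lay above every Angus library. CXCR1 and CXCR2 are close paralogs whose reads could be split by the counting. Among other groups, the alpha-2A adrenergic receptor ADRA2A was higher in Angus at 2.34 ± 0.42, as were the leukotriene receptor CYSLTR1 at 1.90 ± 0.42 and the thromboxane receptor TBXA2R at 1.44 ± 0.34. The prostaglandin E2 receptor PTGER4 was lower in Angus at -2.21 ± 0.56, a call lost with TMM factors.

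**Figure D4:**
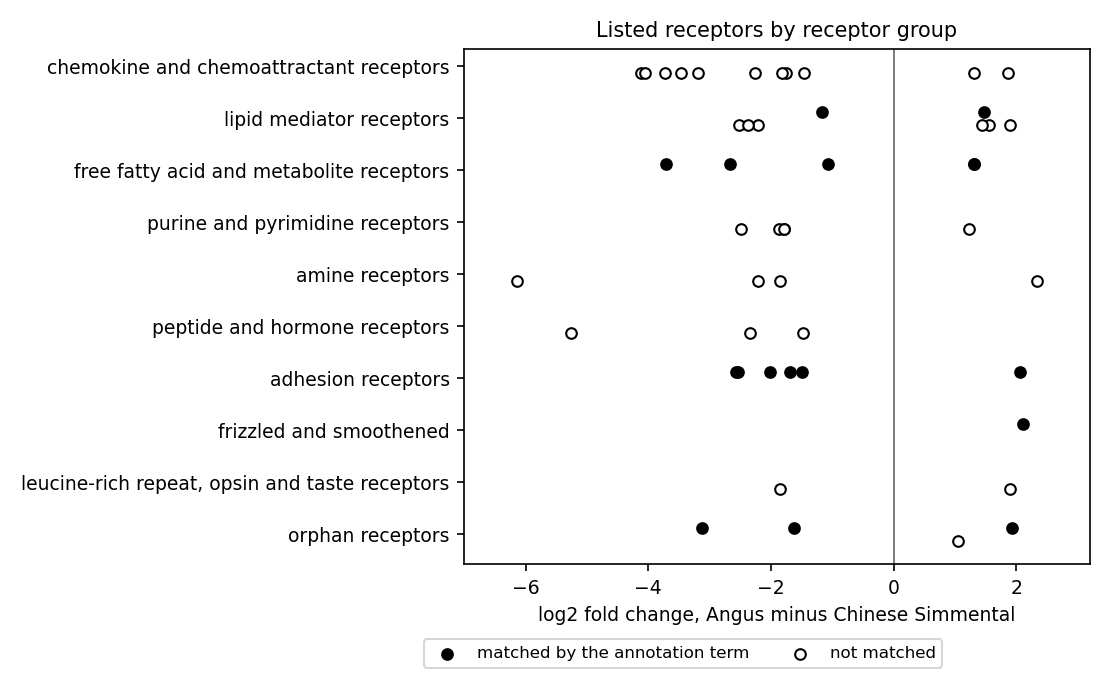
Log2 fold changes of the listed receptors on the family lists, 1 row per group, with filled points for those matched by the annotation term and open points for the 32 that were not. Most groups hold points on both sides of 0, and the chemokine group holds 2 above 0 and 9 below.

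Downstream of the receptors, 5 of 32 G protein subunit genes were listed, 1 called higher in Angus and 4 lower in Angus. Beside the calls on this and the following lists, 24.9% of all rows tested were called higher in Angus and 75.0% lower. GNB5, a beta subunit that pairs with RGS proteins, was higher in Angus at 1.90 ± 0.69, and the gamma subunits GNG7 and GNG12 were lower at -1.48 ± 0.42 and -1.47 ± 0.51, as was the alpha subunit GNA11 at -1.37 ± 0.44. With TMM or RLE factors 1 subunit was called higher in Angus and 0 lower. Of 21 RGS genes, whose products shorten the active state of G proteins, only RGS2 was listed, with 212, 2061 and 1671 in Angus, against 3538, 11683 and 33779.5 in Chinese Simmental. The breeds did not overlap but each spread widely, and RGS2 was lower in Angus at -3.64 ± 0.96. From 15 receptor kinase and arrestin genes 3 were listed, all lower in Angus, among them ARRDC4 at -1.67 ± 0.39 and the beta-arrestin ARRB2 at -1.34 ± 0.39. With TMM factors no RGS, kinase or arrestin gene was called and ARRB2 turned its direction. Cyclic AMP enzymes and targets had 6 of 36 listed, 2 higher and 4 lower in Angus. Adenylyl cyclase ADCY9 and phosphodiesterase PDE4A, which make and break down cyclic AMP, were both lower in Angus, at -1.55 ± 0.43 and -1.66 ± 0.44, and the phosphodiesterase PDE4C was higher at 2.05 ± 0.71. PDE4D was lower in Angus at -1.36 ± 0.50 but turned with TMM factors. With TMM or RLE factors 2 genes of this list were called higher in Angus and 0 lower, so the calls of ADCY9 and PDE4A were lost. The phospholipase C and calcium release list had 3 of 25, with the inositol trisphosphate receptor ITPR3 higher in Angus at 1.12 ± 0.35 and the phospholipase PLCB3 lower at -1.16 ± 0.35, which TMM factors turned too.

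Among 41 chemokine and chemoattractant ligands 10 were listed and 8 passed the count filter, 1 called higher in Angus and 7 lower in Angus. The shares over all rows tested were 24.9% and 75.0%. Annexin ANXA1, a ligand of formyl peptide receptors, was lower in Angus at -2.50 ± 0.48 and CCL16 at -3.14 ± 0.64, while XCL1, a lymphocyte chemokine, was higher at 1.64 ± 0.56. With TMM or RLE factors 1 ligand was called higher in Angus and 2, ANXA1 and CCL16, lower. The XCL1 receptor XCR1 was lower in Angus at -2.26 ± 0.78, a call lost with both factors. Both genes were low. XCL1 averaged 0.417 FPKM in Angus and 0.131 FPKM in Chinese Simmental, and XCR1 0.598 and 2.86 FPKM. Median log2 fold changes were -1.47 for the listed G protein subunits, -1.67 for receptor kinases and arrestins, -1.46 for cyclic AMP genes and -2.10 for the ligands tested, beside -1.57 over all rows.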

How the data were processed

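Libraries were made from 1 µg of RNA per sample, per the labels' protocols, and HISAT2 and genome build ARS-UCD1.2 are named in the submitters' processing notes. How reads were counted, with which annotation and strand setting, is not stated in the labels or headers, so overlapping and antisense genes cannot be told apart. The authors deposited 1 table with raw counts and FPKM for each library. The authors also deposited breed means after depth scaling, an expression signal in units of counts. The authors' log2 fold changes run Chinese Simmental over Angus and stand beside the authors' p-value and adjusted p-value. Of the 2040 names, 1975 have distinct sets of counts. No per-sample column was left unused.

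Size factors were solved from the deposited group means (largest relative residual 1.52e-09 for Angus). Counts were tested with edgeR 4.0.16 in R 4.3.3 (glmQLFit, glmQLFTest, filterByExpr with a minimum count of 10) with breed as the only term. Each standard error was derived from that test, as the absolute log2 fold change divided by the square root of the F statistic. The fit was also run on simulated counts in which most rows were unchanged. Every row here was selected for a difference, so that run does not bear on the calls. Adjusted p-values are Benjamini-Hochberg over all 1989 rows tested, and genes outside the deposited table are not in that correction. Because nearly all rows were called, it changed p little, for SUCNR1 from 0.0410 to 0.0413 in the edgeR quasi-likelihood test. Alternatives used limma 3.58.1, DESeq2 1.42.0, other factors, no filter, a replicate block and 6 leave-outs. The leave-outs use libraries on which the rows had been selected, so a kept call is no independent evidence either. Same-numbered libraries deviated together, with correlations of 0.32, 0.19 and 0.28 over 1776 rows. Angus replicate 3 with Chinese Simmental replicate 2, which differ in number, correlated at 0.29, above 2 of those 3. This pairing comes from the data, and the labels give no reason for it. Exact permutation of 3 against 3 cannot go below p = 0.1, so none was run.

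The receptors, gene lists and tests were chosen with earlier results of these data known. Values in every library were to be given for the 5 receptors with the largest difference in each direction and 2 per receptor group with the highest FPKM, and with 18 names they are given for all. Other lists are counted, with up to 3 genes each by smallest p. CCR7, CXCR5, XCR1, XCL1, GNB5, PDE4D, the receptors outside the term and the neighbouring genes were chosen after their values were seen. All 18 names matched the RefSeq gene table. Some receptors and marker genes are not reported here.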

Additional observations from a re-analysis of the deposited data

How the results depend on the processing

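All 18 names kept their direction under every alternative that tested them, except SUCNR1 and LPAR6, which both turned to 0.27 with TMM factors and to 0.28 with RLE factors computed over the selected rows. Those factors moved all log2 fold changes toward Angus by a median of 1.35. They centre the listed rows, each of which was selected for a difference, so a call lost with them is no evidence of equal levels. Totals from counts and FPKM moved the log2 fold changes by a median of 0.047. With TMM or RLE factors, 2 names were called lower in Angus in place of 12, and 261 and 274 of all rows in place of 1492. Leaving out 1 library gave 4 to 6 of the 18 names higher and 6 to 12 lower in Angus. These counts take FFAR1 and FFAR3 as 2 names and include FRZB. Over all rows, 2006 to 2031 were tested, with 291 to 466 called higher and 1059 to 1423 lower. The lowest count of names lower in Angus was without Chinese Simmental replicate 3, and that count was 7 without Angus replicate 1 or 2. The fewest rows higher in Angus were called without Angus replicate 2. No receptor lost its call without Chinese Simmental replicate 1. With the replicate block, 6 and 11 names and 473 and 1464 rows were called, and the block changed no name's call but that of SUCNR1. Limma on log2(FPKM + 1) lost the calls of ADGRG1 and ADGRE3. DESeq2, no filter, log2(FPKM + 0.1), totals from counts and FPKM, and 1 row per distinct set of counts (added after seeing the data, which leaves FFAR1 and FFAR3 to the CD22 row) changed no call of a receptor they tested. The cause of these changes was not tested. Depth limits ADGRV1 and CELSR3, each with under 10 reads in at least 2 Angus libraries.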

Other observations

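In the RefSeq gene order of ARS-UCD2.0, several receptors lie beside other listed genes. GPR27 lies between PROK2, a secreted ligand of prokineticin receptors, and EIF4E3, a translation initiation factor, and all 3 were lower in Angus, with log2 fold changes of -3.12 ± 0.53 for GPR27, -3.52 ± 0.85 for PROK2 and -2.75 ± 0.47 for EIF4E3. PROK2 had 44.5, 76.2 and 111 normalized counts in Angus replicates 1 to 3, against 109, 1216 and 1343 in Chinese Simmental replicates 1 to 3. Angus replicate 3 lay just above Chinese Simmental replicate 1, so the breeds overlapped for PROK2. EIF4E3 had 592, 337 and 915 normalized counts in Angus replicates 1 to 3, against 2907, 4275 and 5258 in Chinese Simmental replicates 1 to 3. CELSR3 lies beside the anion exchanger SLC26A6, which was lower in Angus at -1.71 ± 0.35. ADGRE3 and the lectin CLEC17A, with 1 annotated gene between them, differed in opposite directions, with CLEC17A higher in Angus at 1.81 ± 0.49. GPR82 and NYX, also with 1 gene between, did so too, with NYX lower in Angus at -4.13 ± 1.08, as did ADGRV1 and POLR3G, with POLR3G higher at 1.28 ± 0.43, and the shared FFAR1 row and MAG, with MAG lower at -2.17 ± 0.77. ADGRG1 and CCDC102A, with 1 gene between, also differed in opposite directions, with CCDC102A higher in Angus at 1.46 ± 0.39. These genes were chosen after their values were seen. Among all rows tested, 24.9% were called higher in Angus and 75.0% lower in Angus.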
